A study of Rattus norvegicus with 8 samples.

Results

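Slow-twitch (type I) skeletal muscle fibres are marked by their own forms of the contractile proteins, and 9 genes of this kind were followed in the rat Achilles tendon: *Myh7*, *Myh7b*, *Myl2*, *Myl3*, *Tnnt1*, *Tnni1*, *Tnnc1*, *Myoz2*, and *Casq2*. The genes were chosen by name from the gene symbols of the deposited expression table. All 9 were found among its 32883 genes, and all 9 were among the 13937 genes with enough reads to be tested. The right Achilles tendons came from 8 wild-type (WT) male Sprague-Dawley rats of 8 to 10 weeks of age, with 1 library of polyadenylated RNA per sample. The 4 running rats (12 h p.r.) ran uphill on a treadmill for 1 h and were killed 12 h later. The 4 naïve controls (NC) stayed in their cages and were killed together with the runners. Running was urged by a stream of air and, for rats that left the belt, a mild electric stimulus, so the run and these stimuli cannot be told apart. The comparison asks whether the levels of these genes in the tendon differed 12 h after the run, and how far they differed between rats of the same group.

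In striated muscle, force is produced when the heads of myosin pull on actin filaments. Myosin is built of heavy chains with a regulatory and an essential light chain each, and its access to actin is gated by calcium through the troponin complex of subunits T, I, and C. Slow and fast fibres use different genes for most of these proteins. The genes *Myh7*, *Myl2*, *Myl3*, and *Tnnc1* serve slow skeletal fibres and also the heart ventricle, while *Tnnt1* and *Tnni1* encode the slow skeletal troponins. The Achilles tendon joins the soleus muscle, which is rich in slow fibres in the rat, and the gastrocnemius muscle, which is mostly fast, to the heel bone. Tenocytes, the main cells of tendon, are not known for contractile slow-fibre proteins.

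The total reads counted on genes ran from 7350509 to 12951397 per rat. Expression is given as CPM, reads scaled to a common library size of 1000000 after TMM scaling (trimmed mean of M values), and as FPKM, the authors' values per gene length, where levels of different genes are compared. Markers of tenocytes were present in every rat, and the 10 genes of that list, including *Scx*, *Tnmd*, and *Col1a1*, summed to 17050 to 51320 CPM in the running rats and 28890 to 43420 CPM in the NC rats, the lowest value being that of 12 h p.r. replicate 3. Because whole tissue was sequenced, fewer cells of a type and less RNA per cell cannot be told apart in any value that follows. The labels number the samples of a group as replicates, and counting intervals given below cover counting error only.

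The DNA just before the annotated start of 4 of the genes is shown because these genes behaved differently: *Tnnt1* and *Myl3* varied together with most of the list, *Casq2* varied less, and *Myh7b* least. RefSeq promoter windows on the build GRCr8 were matched for 7 of the 9 genes, without *Myl2* and *Tnnc1*, while the expression values rest on the build Rnor_6.0. Each line holds the 250 bases before the start, 5′ to 3′ along the gene, and capitals mark every match, on either strand, to an E-box (CANNTG, the motif of the myogenic MyoD family), a TATA box (TATAAA), an MCAT motif (CATTCC, bound by TEAD factors), or the MEF2 and CArG motifs (bound by MEF2 factors and serum response factor). Matches to different motifs did not overlap.
*Tnnt1* (chr1:78348785-78349034, + strand): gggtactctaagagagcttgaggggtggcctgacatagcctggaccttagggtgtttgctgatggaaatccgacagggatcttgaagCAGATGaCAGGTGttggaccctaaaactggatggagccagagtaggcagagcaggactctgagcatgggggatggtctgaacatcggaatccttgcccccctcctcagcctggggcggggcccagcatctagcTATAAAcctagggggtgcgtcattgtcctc
*Myl3* (chr8:119616844-119617093, + strand): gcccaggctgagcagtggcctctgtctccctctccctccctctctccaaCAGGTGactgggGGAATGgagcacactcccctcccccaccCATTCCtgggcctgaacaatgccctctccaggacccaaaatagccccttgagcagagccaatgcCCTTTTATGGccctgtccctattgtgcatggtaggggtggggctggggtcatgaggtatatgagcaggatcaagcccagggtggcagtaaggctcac
*Casq2* (chr2:192214306-192214555, + strand): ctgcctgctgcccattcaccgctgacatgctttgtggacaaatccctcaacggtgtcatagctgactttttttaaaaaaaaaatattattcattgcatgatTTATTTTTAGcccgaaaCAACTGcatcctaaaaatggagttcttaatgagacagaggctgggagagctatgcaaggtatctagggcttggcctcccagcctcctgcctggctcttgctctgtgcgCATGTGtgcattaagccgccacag
*Myh7b* (chr3:164558090-164558339, + strand): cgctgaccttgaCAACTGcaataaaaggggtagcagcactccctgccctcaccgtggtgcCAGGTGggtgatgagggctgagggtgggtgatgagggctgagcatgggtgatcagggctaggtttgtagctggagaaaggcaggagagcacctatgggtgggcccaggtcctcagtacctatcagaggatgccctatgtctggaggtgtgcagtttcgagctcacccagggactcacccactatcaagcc

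The *Tnnt1* window held 2 E-boxes and 1 TATA box, and the *Myl3* window held 1 E-box, 2 MCAT motifs, and 1 CArG motif. The *Casq2* window held 2 E-boxes and 1 MEF2 motif, and that of *Myh7b* held 2 E-boxes only. Of the 33469 rat windows of this length, 65.5% held an E-box, 12.9% a TATA box, 12.1% an MCAT motif, 2.96% a MEF2 motif, and 1.5% a CArG motif. These matches are a description of the letters in the window. Whether these annotated starts were the ones used in the samples was not tested.

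*Myh7* (ENSRNOG00000016983), the slow myosin heavy chain, was at 1.55, 529, 51.2, and 73.5 CPM in 12 h p.r. replicates 1 to 4. In NC replicates 1 to 4 it was at 238, 757, 497, and 745 CPM. Running replicates 1, 3, and 4 lay below every NC rat, while running replicate 2 lay inside the NC range. The value of running replicate 1 rested on 12 reads, or 1.58 per 1000000 total reads (exact 95% binomial interval, 0.818 to 2.76), and was 0.278% of the NC mean. *Myh7b* (ENSRNOG00000018997), a related heavy chain gene that also hosts the microRNA gene *Mir499a*, was at 33.9, 33.3, 23.1, and 27.2 CPM in the running rats and 26.1, 38.3, 23.3, and 30.1 CPM in the NC rats. The groups of *Myh7b* overlapped almost entirely. Running replicate 1, the rat with the least *Myh7*, was level in *Myh7b* with running replicate 2. Their 262 and 253 reads had overlapping exact 95% binomial intervals, 30.5 to 39.0 and 30.3 to 38.9 per 1000000 total reads. *Mir208b*, the microRNA gene within *Myh7*, had 2 reads in NC replicate 2, 2 reads in NC replicate 4, and 0 reads in the other rats, too few to compare.

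*Myl3* (ENSRNOG00000020955), the slow essential light chain, was at 0.777, 221, 20.8, and 35.2 CPM in 12 h p.r. replicates 1 to 4 and at 142, 466, 178, and 232 CPM in NC replicates 1 to 4. *Myl2* (ENSRNOG00000030848), the slow regulatory light chain, was at 0, 13.0, 1.19, and 1.31 CPM in the running rats and at 7.46, 35.2, 16.6, and 30.3 CPM in the NC rats. Within each group both light chains ranked the rats as *Myh7* did, with running replicate 2 inside the NC range and the other running rats below it. The 0 reads of *Myl2* in running replicate 1 allow a level of up to 0.388 CPM, the value of 3 reads in that library.

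*Tnnt1* (ENSRNOG00000028041), the slow tropomyosin-binding troponin T, was at 1.29, 314, 30.5, and 60.1 CPM in 12 h p.r. replicates 1 to 4 and at 207, 560, 230, and 451 CPM in NC replicates 1 to 4. *Tnni1* (ENSRNOG00000009073), the slow inhibitory subunit, was at 0.647, 193, 24.4, and 36.1 CPM in the running rats and at 121, 351, 195, and 292 CPM in the NC rats. *Tnnc1* (ENSRNOG00000018943), the calcium-binding subunit of slow and cardiac muscle, was at 1.17, 224, 21.7, and 36.8 CPM in the running rats and at 147, 377, 151, and 339 CPM in the NC rats. For all 3 troponin subunits, running replicate 2 was the only running rat above any NC rat.

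*Myoz2* (ENSRNOG00000014815), a calcineurin-binding protein of the Z disc in slow and cardiac fibres, was at 0, 61.4, 6.66, and 11.1 CPM in the running rats and at 41.8, 137, 53.2, and 101 CPM in the NC rats. *Casq2* (ENSRNOG00000016243), a calcium store protein of the sarcoplasmic reticulum in slow and cardiac fibres, was at 19.3, 72.3, 37.8, and 24.2 CPM in the running rats and at 35.8, 88.1, 39.8, and 64.3 CPM in the NC rats. *Casq2* thus kept 149 reads in running replicate 1, at 33.8% of the NC mean, where *Myoz2* and *Myl2* had 0 reads. In *Casq2*, 2 of the 4 running rats lay below every NC rat, against 3 of 4 for the 7 sarcomeric genes (*Myh7*, *Myl2*, *Myl3*, *Tnnt1*, *Tnni1*, *Tnnc1*, and *Myoz2*). Of all genes tested, 10.3% had at least 3 of 4 running rats below every NC rat. In none of the 9 genes were the groups free of overlap, which was the case with lower running rats in 2.55% of all genes tested.

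**Figure D1:**
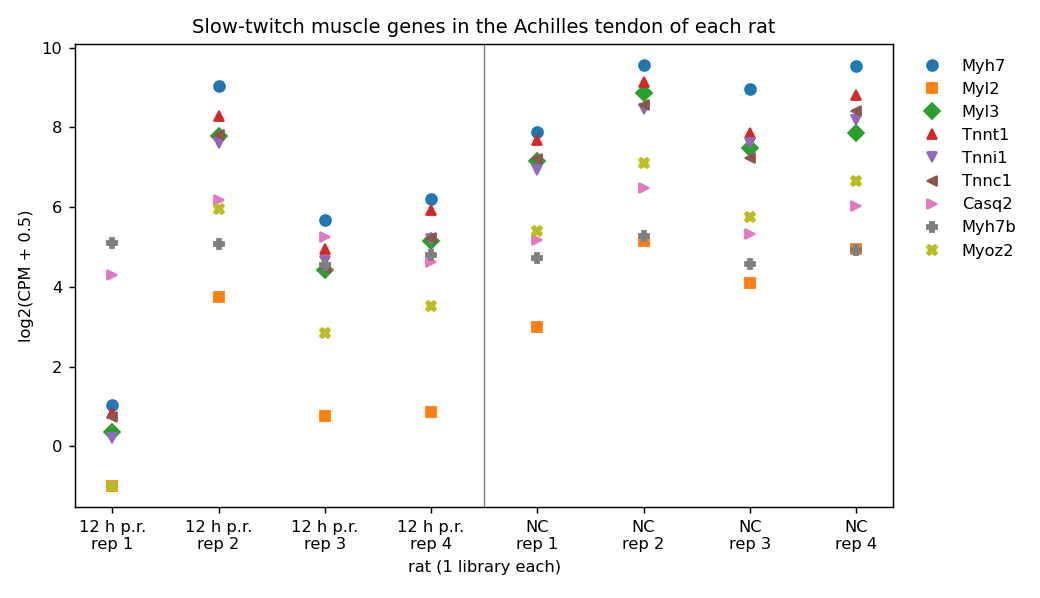
Level of the 9 slow-twitch muscle genes in each of the 8 rats, as log2(CPM + 0.5) on the vertical axis, with the running rats left of the line and the NC rats right of it and 1 symbol per gene. The 7 sarcomeric genes are lowest in 12 h p.r. replicate 1 and highest or next to highest in NC replicates 2 and 4, while *Myh7b* stays between 23.1 and 38.3 CPM in every rat.

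Per gene length, the NC rats held most *Tnnt1*, at 371 ± 176 FPKM (SD, n = 4 rats), then *Tnnc1* at 307 ± 147, *Myl3* at 281 ± 161, and *Tnni1* at 186 ± 79.0 FPKM, neighbours whose means differed by less than the spread between rats. *Myh7* followed at 94.1 ± 41.3 FPKM, *Myoz2* at 70.7 ± 37.5, *Myl2* at 46.5 ± 26.4, and *Casq2* at 22.5 ± 9.56 FPKM. The ranges of the NC rats overlapped within each neighbouring pair of these 4 genes, and between *Tnni1* and *Myh7*. Within every single NC rat, though, the order from high to low was *Tnni1*, *Myh7*, *Myoz2*, *Myl2*, and *Casq2*. *Tnnt1* was likewise above *Tnnc1*, and *Myl3* above *Tnni1*, in each NC rat, while the order of *Tnnc1* and *Myl3* changed between NC rats. *Myh7b* was lowest, at 4.81 ± 1.07 FPKM, and its highest NC rat (6.25 FPKM) lay below the lowest NC rat of *Casq2* (14.1 FPKM). In the running rats the means were 104 ± 147 FPKM for *Tnnt1*, 27.5 ± 41.1 for *Myh7*, and 4.78 ± 0.828 for *Myh7b* (SD, n = 4), so that the SD exceeded the mean for the first pair but not for *Myh7b*.

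The spread within a group was the most prominent feature of the sarcomeric genes. Among the NC rats, the highest rat held between 2.57 (*Tnnc1*) and 4.72 (*Myl2*) times the level of the lowest. Among the running rats this ratio was 193 for *Tnnc1* and 341 for *Myh7*, with *Myl3*, *Tnnt1*, and *Tnni1* between them. No such ratio was formed for *Myl2* and *Myoz2*, which had 0 reads in 1 rat. The coefficient of variation of the CPM ran from 138 to 158% in the running rats and from 42.5 to 57.4% in the NC rats for the 7 sarcomeric genes. For *Casq2* it was 62.3% and 42.6%, and for *Myh7b* 17.6% and 22.2%.

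Set beside all 13937 genes tested, the pooled SD of log2(CPM + 0.5) within a group was 2.41 for *Myh7*, against a median of 0.229, and 19 genes had a larger SD. The SD of *Tnnt1* was 2.26, that of *Myl3* 2.24, and that of *Tnni1* 2.24, each at percentile 99.8. *Myl2*, the sarcomeric gene with the fewest reads, had the smallest of these SDs, 1.56, at percentile 99.1. *Casq2*, at 0.724, stood at percentile 94.0, and *Myh7b*, at 0.283, at percentile 62.2. So wide a spread was not particular to the slow genes. The fast-fibre counterparts described below had SDs from 1.71 (*Myl1*) to 2.54 (*Myh1*, with 12 genes larger). Among the cartilage and bone genes tested, the SD ran from 1.275 (*Acan*) to 2.92 (*Col2a1*, with 7 genes larger). Running replicates 1 and 2, the lowest and the highest running rat, had 7584345 and 7350509 total reads. In the NC rats, replicates 1 to 4 had 12951397, 8385779, 12724796, and 11008949 total reads, so the rat with the fewest reads had the highest CPM of the sarcomeric genes and the rat with the most reads had the lowest. The part of depth in the spread was not tested.

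**Figure D2:**
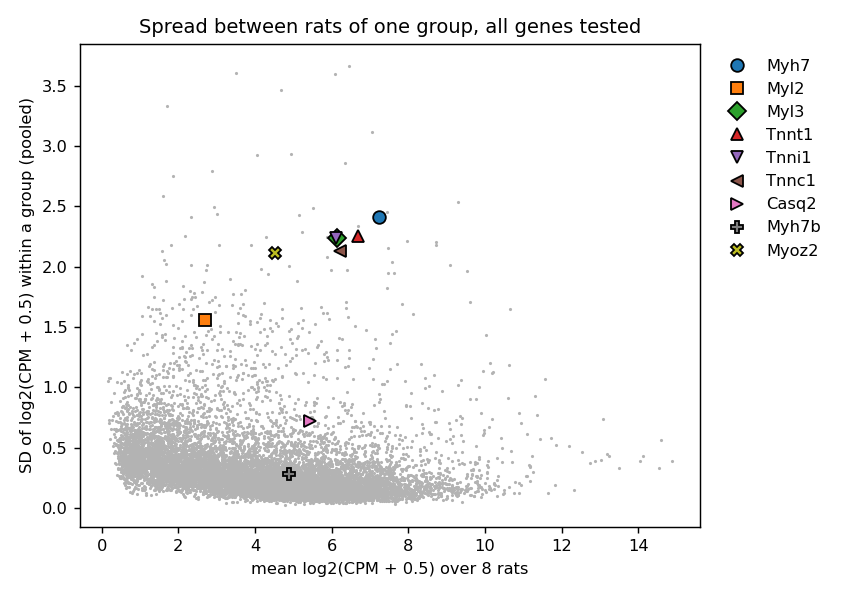
Pooled SD of log2(CPM + 0.5) within a group on the vertical axis against the mean level over the 8 rats on the horizontal axis, with 1 grey point for each of the 13937 genes tested and the 9 slow-twitch muscle genes as coloured symbols. *Myh7* (SD 2.41) and the other sarcomeric genes lie far above the median SD of 0.229, and *Myh7b* (0.283) lies in the cloud of other genes.

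Between the groups, the levels of the 7 sarcomeric genes were lower on average at 12 h p.r., but 0 of the 9 genes passed the test over all genes. With p-values of the edgeR quasi-likelihood fit adjusted by the Benjamini-Hochberg method, 0.00718% of the genes tested were under 0.05, which is 1 gene and none of the 9. An unadjusted p under 0.05 was found in 9.51% of the genes tested, and with lower running rats in 4.08%, while 1 of the 9 slow-twitch genes, *Myl2*, was in that class. Its mean was 22.4 ± 12.7 CPM in NC and 3.89 ± 6.13 CPM in the running rats (SD, n = 4 each). The log2 fold change of *Myl2* was −2.55 (95% interval, −4.78 to −0.33, edgeR adjusted p = 0.478). The Wald test of DESeq2, which called 0.617% of its genes at an adjusted p under 0.05, called 0 of the 9 and had 0 of them at an unadjusted p under 0.05.

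*Myh7* averaged 559 ± 246 CPM in NC and 164 ± 245 CPM in the running rats (SD, n = 4 each), a log2 fold change of −1.77 (95% interval, −4.39 to 0.85, edgeR adjusted p = 0.668). The other 5 sarcomeric genes had log2 fold changes from −1.84 to −2.08, with intervals that all held 0. *Casq2*, at 38.4 ± 23.9 CPM and 57.0 ± 24.3 CPM (SD, n = 4 each), had a log2 fold change of −0.57 (95% interval, −1.55 to 0.41, edgeR adjusted p = 0.711). *Myh7b*, at 29.4 ± 5.18 CPM and 29.4 ± 6.53 CPM (SD, n = 4 each), had a log2 fold change of 0.0008 (95% interval, −0.41 to 0.41, edgeR adjusted p = 0.999). Its interval was the narrowest of the 9 genes. The median log2 fold change of the 9 genes was −1.84, where that of all genes tested was 0.0228, and 8 of the 9 were below 0, as were 45.8% of all genes tested. A log2 fold change of −1 or lower was found in the 7 sarcomeric genes, and in 0.897% of all genes tested.

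The size of the difference depended on how rats were averaged. The edgeR fold change follows the group means of the counts, in which running replicate 2 had most weight, so the running mean of *Myh7* was 0.293 times the NC mean. The mean of log2(CPM + 0.5), which gives each rat the same weight, was lower by more at 12 h p.r., with differences of −3.49 for *Myh7*, −3.37 for *Tnnt1*, and −3.20 for *Myl2*. On this scale running replicate 1, with few or 0 reads, pulls the running mean down. For *Myh7* it was at 1.04, beside 5.69 to 9.05 in the other running rats. For *Myl2* it was at −1.0, a value set by the 0.5 added to 0 reads. The *Myl2* difference was −2.80 with 1 added and −3.95 with 0.1 added. With 4 rats a group, the 2-sided exact permutation test of these means cannot give a p below 0.0286. The exact permutation p was 0.0571 for *Myl2* and *Tnni1*, 0.0857 for *Myh7*, *Myl3*, *Tnnt1*, *Tnnc1*, and *Myoz2*, 0.257 for *Casq2*, and 1.0 for *Myh7b*. Of the variation in log2(CPM + 0.5) over the 8 rats, 41.2% (*Myh7*) to 58.5% (*Myl2*) lay between the groups for the 7 sarcomeric genes, 21.4% for *Casq2*, and 0.0171% for *Myh7b*.

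Replicate 2 at 12 h p.r. was the only running rat inside the NC range of the 7 sarcomeric genes, so leaving it out lowers the running values. Without it, the log2 fold change was −3.73 for *Myh7*, −3.56 for *Tnnt1*, and −4.66 for *Myl2*. Of the 9 genes, 8 had an unadjusted p under 0.05 by edgeR, with *Myh7b* the exception. So had 1443 of the 14189 genes tested in that fit, 628 of them lower at 12 h p.r. The lowest adjusted p of the 9 in that fit, for *Myl2*, was 0.27 by edgeR, so 0 of the 9 passed over all genes there too. Without 12 h p.r. replicate 1, the rat with the fewest reads of these genes, the log2 fold change of *Myh7* was −1.36. Leaving out any 1 rat kept the 7 sarcomeric genes and *Casq2* below 0. In the fits without 1 rat other than replicate 2 at 12 h p.r., 0 or 1 of the 9 had an unadjusted p under 0.05 by edgeR, as had 879 to 1580 of all genes tested.

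**Figure D3:**
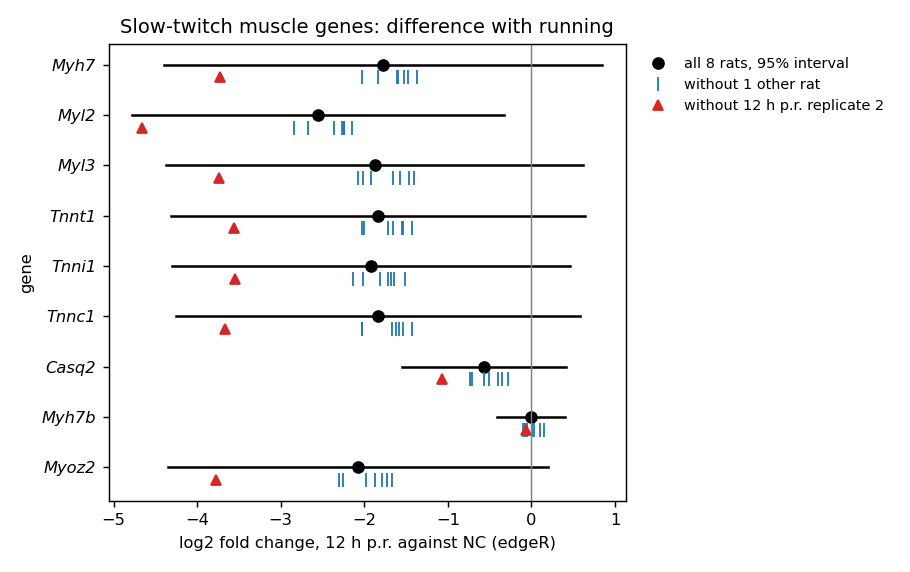
Log2 fold change at 12 h p.r. against NC on the horizontal axis for each of the 9 genes, from edgeR, with black points and lines for all 8 rats and their 95% intervals, blue ticks for fits without 1 other rat, and red triangles for the fit without 12 h p.r. replicate 2. Except for *Myl2*, the intervals of all 8 rats cross 0, and the red triangle of *Myh7* stands at −3.73 beside −1.77 with all rats.

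The 7 sarcomeric genes kept nearly the same order of rats. Over the 8 rats, the Pearson r of log2(CPM + 0.5) between any pair of them ran from 0.944 to 0.999 (median, 0.995), and without running replicate 1, the lowest rat, from 0.967 to 0.998. These correlations are a description over 8 libraries, and the genes share the libraries, their depth, and their scaling. Ratios within a rat were narrow: per gene length, *Tnni1* was 1.68 to 2.35 times *Myh7* in all 8 rats, *Tnnt1* 2.81 to 5.29 times, *Myl3* 2.04 to 4.04 times, and *Tnnc1* 2.18 to 5.39 times. *Myoz2* was 0.54 to 0.914 times *Myh7*, except in running replicate 1, where it had 0 reads. The SD of the log2 ratio of *Tnni1* to *Myh7* over the 8 rats was 0.216, where the SD of log2(CPM + 0.5) of *Myh7* itself was 2.91. *Myl2* departed from this, as its ratio to *Myh7* was 0.387 to 0.573 in the NC rats and 0.221 to 0.304 in running replicates 2 to 4, with 0 reads in running replicate 1. In running replicates 3 and 4 this ratio rested on 10 and 14 reads of *Myl2*, and its difference between the groups was not tested.

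*Casq2* followed the 7 less closely, with r from 0.829 to 0.880. Its ratio to *Myh7* per gene length was 0.188 to 0.352 in the NC rats and 29.1 in running replicate 1. For *Myh7b* the r with the 7 ran from −0.005 to 0.191 over the 8 rats. This rested on running replicate 1, since without it the r of *Myh7b* with the 7 was 0.602 to 0.695.

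**Figure D4:**
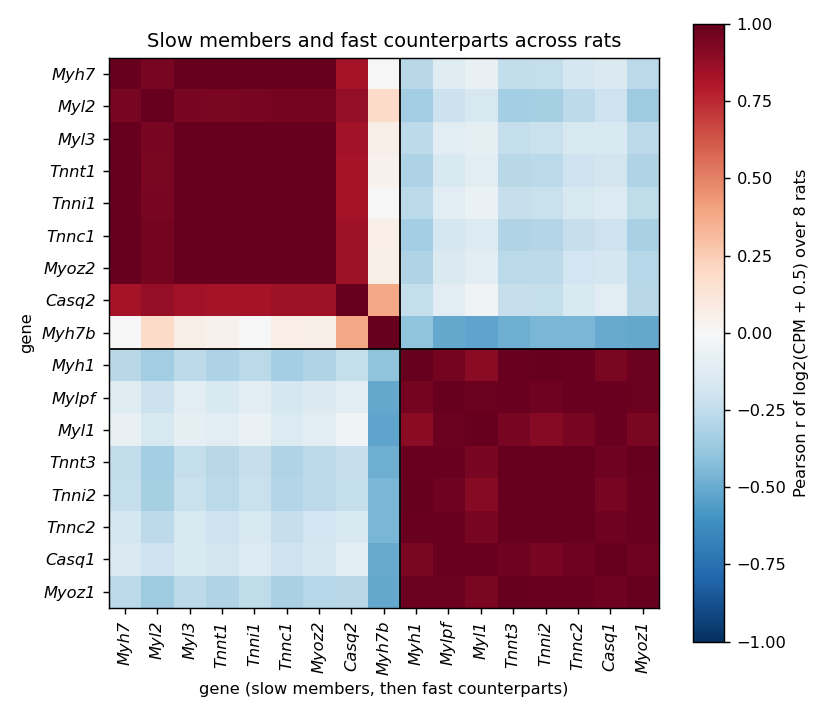
Pearson r of log2(CPM + 0.5) over the 8 rats between each pair of 17 genes, with the 9 slow-twitch genes first and their 8 fast-fibre counterparts after the black lines, and colour from blue (r of −1) to red (r of 1). The 7 sarcomeric slow genes (r of at least 0.944) and the fast genes (r of at least 0.901) form separate red blocks, with r from −0.356 to −0.065 between the blocks.

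Genes of fast fibres ranked the rats in another order. Of 10 fast counterparts listed, 8 were matched by name, *Myh1*, *Mylpf*, *Myl1*, *Tnnt3*, *Tnni2*, *Tnnc2*, *Casq1*, and *Myoz1*, and *Myh2* and *Myh4* were not analysed here. Their summed level was 2491, 995, 42770, and 2300 CPM in running replicates 1 to 4 and 2704, 6253, 8251, and 685 CPM in NC replicates 1 to 4. The rat highest in fast genes was thus running replicate 3, and the lowest was NC replicate 4, whereas the slow list summed to 58.6, 1662, 217, and 306 CPM in the running rats and 966, 2811, 1384, and 2285 CPM in the NC rats. Running replicate 1, with 5.44 CPM in all for the 7 sarcomeric slow genes, held a fast total close to those of running replicate 4 and NC replicate 1. All 8 fast genes had log2 fold changes above 0 at 12 h p.r., from 1.32 to 1.83, of which 0 had an unadjusted p under 0.05. This direction rested on running replicate 3. Without it, a setting chosen after the data were seen, the log2 fold changes of all 8 were below 0, from −1.35 for *Tnnc2* to −1.04 for *Tnnt3*. Of the 8, 1 gene, *Myl1*, had an unadjusted p under 0.05 (log2 fold change of −1.20, edgeR adjusted p = 0.42). In that fit, 757 of the 14236 genes tested were lower at an unadjusted p under 0.05. With all rats, the running median of *Tnnt3* was 342 CPM and the NC median 531 CPM. The r between the 7 slow and the 8 fast genes, −0.356 to −0.065 over all rats, was −0.659 to −0.388 without running replicate 1 and −0.221 to 0.274 without running replicate 3.

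The balance of slow and fast forms of 1 protein therefore ranged widely between rats. Of the FPKM of both troponin T genes, *Tnnt1* made up 0.43, 77.0, 0.592, and 17.0% in 12 h p.r. replicates 1 to 4 and 41.1, 47.2, 20.1, and 91.0% in NC replicates 1 to 4. For troponin I, the share of *Tnni1* beside *Tnni2* was 0.63, 85.8, 1.3, and 25.8% in the running rats and 51.7, 57.7, 34.7, and 97.1% in the NC rats. The share of *Myh7* beside *Myh1* was lowest in running replicate 1, at 0.696%, and highest in NC replicate 4, at 98.3%. The groups overlapped in each of these shares, since running replicate 2 lay above 3 of the 4 NC rats. Low shares had different makeups: running replicate 3 had 30.5 CPM of *Tnnt1* beside 5887 CPM of *Tnnt3*, and running replicate 1 had 1.29 CPM of *Tnnt1* beside 345 CPM of *Tnnt3*. *Myl2* was the smaller part of its pair in every rat, from 0% in running replicate 1 to 22.8% in NC replicate 4, and *Casq2* made up 1.35 to 52.6% of both calsequestrins.

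**Figure D5:**
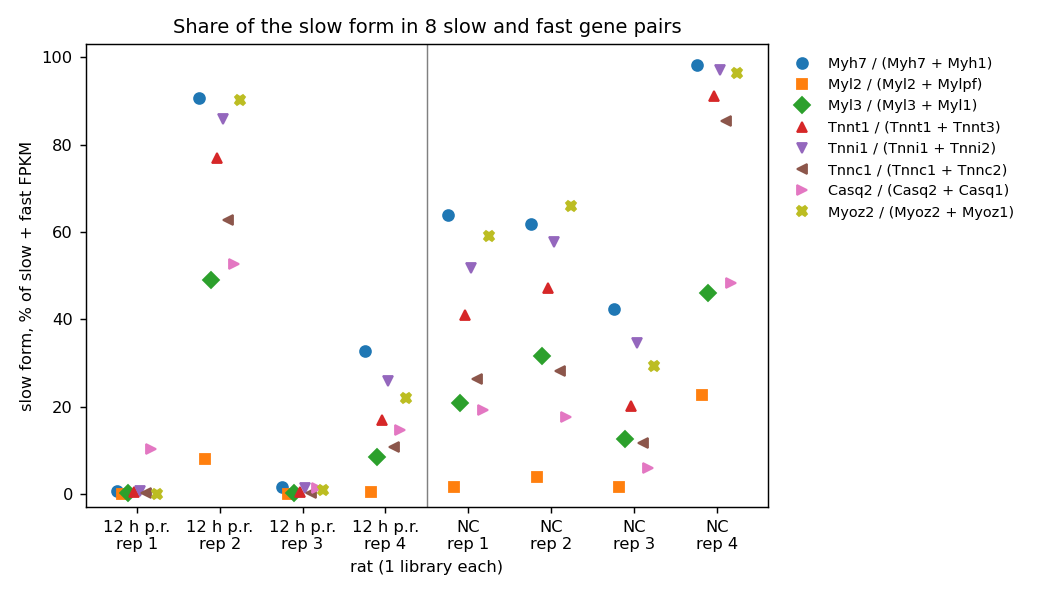
Slow form as a percentage of the slow and fast forms together, from FPKM, for 8 gene pairs (1 symbol each) in each of the 8 rats, running rats left of the line and NC rats right. The share of *Tnnt1* runs from 0.43% in 12 h p.r. replicate 1 to 91.0% in NC replicate 4, and 12 h p.r. replicate 2 (77.0%) lies above 3 of the 4 NC rats.

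Other genes used mainly by slow or oxidative fibres gave a similar picture. Of 10 such genes listed, 9 were in the table and tested, and all 9 had log2 fold changes below 0, with a median of −0.85. Their mean log2 level had r = 0.97 with that of the 7 sarcomeric genes over the 8 rats. Unadjusted p was under 0.05 in 3 of them, all lower at 12 h p.r. (4.08% of all genes tested), and adjusted p in 0. These were *Tpm3*, a tropomyosin, with a log2 fold change of −0.86 (edgeR adjusted p = 0.478), *Atp2a2*, the slow-fibre calcium pump, with −0.65 (edgeR adjusted p = 0.478), and *Myh6*, a heart heavy chain next to *Myh7* in the genome, with −1.80 (edgeR adjusted p = 0.524). *Tpm3* and *Atp2a2* are also expressed outside muscle, and even in running replicate 1 they were at 206 and 229 CPM. *Ankrd2*, a stretch-responsive Z disc protein of slow fibres, was at 0.129, 50.5, 5.47, and 7.14 CPM in the running rats and at 19.3, 118, 51.6, and 57.4 CPM in the NC rats. *Csrp3*, the muscle LIM protein, was at 179 CPM in running replicate 2 and 0.518 CPM in running replicate 1, a span as wide as that of the sarcomeric genes. *Mb*, which encodes myoglobin, was at 17.9, 339, 283, and 65.3 CPM in the running rats and at 308 to 773 CPM in the NC rats. *Pln*, the inhibitor of the slow calcium pump, was at 23.1 to 39.9 CPM in every rat, with a log2 fold change of −0.06.

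*Myh6* and *Myh7* are near-identical neighbours, and how reads that match both were counted is not given in the sources used here. Per gene length, *Myh6* was at 1.45 to 3.96% of *Myh7* in 7 rats and at 98.3% in running replicate 1, where each had 12 reads. Since several of the 9 genes also serve the heart, a list of 10 heart genes, *Myh6* among them, was set beside them. Of that list, the atrial light chain *Myl7*, the natriuretic peptide genes *Nppa* and *Nppb*, and the cardiac myosin-binding protein *Mybpc3* were under 1 CPM in every rat. *Tnni3*, the heart troponin I, was at most 2.82 CPM in any rat, and *Ryr2* at most 2.59 CPM. The other members of the list reached higher levels in at least 1 rat. Their highest values were 44.15 CPM for *Myl4*, 36.89 CPM for *Actc1*, 30.54 CPM for *Myh6*, and 7.73 CPM for *Tnnt2*. The heart list summed to 11.4 to 75.6 CPM in the running rats and 26.5 to 74.6 CPM in the NC rats, and its mean log2 level had r = 0.88 with that of the 7.

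Regulators of fibre type did not follow the slow genes as a list. Of 11 listed, 10 were tested, with a median log2 fold change of 0.27 and 0 with an adjusted p under 0.05. At an unadjusted p under 0.05, 3 were higher and 1 lower, named here after their values were seen. Of all genes tested, 9.51% were under that p in either direction, and 4.08% were lower. *Esrrg*, a nuclear receptor tied to oxidative fibres, was at 3.49, 2.24, 2.26, and 1.6 CPM in the running rats and at 4.97, 6.75, 3.63, and 5.69 CPM in the NC rats, without overlap (log2 fold change of −1.13, edgeR adjusted p = 0.404). *Prox1*, a transcription factor of slow muscle and of lymphatic endothelium, was at 14.4 to 19.0 CPM in the running rats and 8.46 to 12.4 CPM in the NC rats, also without overlap (log2 fold change of 0.60, edgeR adjusted p = 0.422). *Ppargc1a*, a coactivator of mitochondrial genes, was at 1.55, 1.58, 11.1, and 1.5 CPM in the running rats and at 0.859 to 1.44 CPM in the NC rats, without overlap. The nearest values, 1.5 and 1.44 CPM, lay close together, and no counting interval was formed for them. Its log2 fold change of 1.88 rested on running replicate 3 and was 0.54 without it. *Mef2d* had a log2 fold change of 0.40. Groups without overlap were found in 6.06% of all genes tested. The mean level of these regulators had r = 0.06 with that of the 7 sarcomeric genes over the 8 rats.

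Markers of other tissues were set beside the slow genes in the same way. The mean log2 level of the 7 sarcomeric genes had r = 0.16 with general striated muscle genes (11 of 14 matched, 1743 to 32250 CPM summed in running rats and 2007 to 6133 CPM in NC rats), which were highest in running replicate 3. The r was −0.12 for 10 tenocyte genes, −0.27 for 8 cartilage and bone genes, −0.22 for 5 endothelial genes, −0.25 for 5 fat cell genes, 0.29 for 6 leukocyte genes, 0.03 for 5 Schwann cell genes, and −0.55 for 6 smooth muscle genes. *Des* is on both the smooth muscle and the striated muscle list. It was at 1655 CPM in running replicate 3 and 202 to 320 CPM in the other running rats, and its part in the r was not tested. The cartilage and bone genes summed to 979 CPM in running replicate 1, above the 35.5 to 620 CPM of the other running rats, and to 100 to 2614 CPM in the NC rats. The part of these tissues in the slow-gene values was not tested. Satellite cell genes were low throughout, from 0.906 to 18.2 CPM for the 4 genes together, and those of the neuromuscular junction from 5.07 to 15.6 CPM for 6 genes.

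The genes most like the 9 were ranked by the Pearson r of log2(CPM + 0.5) with the mean standardised level of the 9 over the 8 rats, outside the muscle lists. *Sln* (r = 0.972), which encodes the calcium pump regulator sarcolipin, was at 0, 5.80, 1.07, and 2.72 CPM in the running rats and at 4.09, 17.3, 8.31, and 12.8 CPM in the NC rats. *Myh3* (r = 0.947), the embryonic myosin heavy chain, was at 0.777, 26.2, 13.6, and 11.3 CPM in the running rats and at 33.0, 121, 45.8, and 45.9 CPM in the NC rats. *Atp1b1* (r = 0.951), a subunit of the sodium pump, was at 17.3 to 45.1 CPM and 37.0 to 55.6 CPM. A gene without a name in the table, AC130940.1 (protein coding, r = 0.964), ranged from 0.777 CPM in running replicate 1 to 259 CPM in NC replicate 2. The others of the first 10 were the lincRNA AABR07010868.1 (r = 0.980), the pseudogenes AABR07015006.1 and AABR07029573.1, the protein-coding genes *Cfap73* and AC128207.1, and the snoRNA RF00592, with r of at least 0.944. Among 13879 genes ranked, 35 had an r above 0.9. Without NC replicate 2, 1 of the first 10 stayed among the first 10, AABR07010868.1.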

How the data were processed

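The right Achilles tendons of 8 rats, 4 per group by the sample labels, were sequenced as stranded polyadenylated libraries. The authors used HISAT2 2.1.0, featureCounts 1.6.3, and the build Rnor_6.0, per the submitters' processing notes. The deposited count table holds whole, unnormalised reads for each Ensembl gene. How strand and multiply matching reads were treated in counting is not given in the sources used here. The deposited FPKM values are counts per gene length and per DESeq2 size factor (1.30.1), as a check of the factors showed. A table of the authors' own comparison, with fold changes and p-values, was not used. Genes were filtered with filterByExpr, scaled by TMM, and tested with the quasi-likelihood test of edgeR 4.0.16 in R 4.3.3 over all 13937 genes, with standard errors from the F statistic and Benjamini-Hochberg adjustment, and the procedure was tested on simulated data. Alternatives used DESeq2 1.42.0, other factors and filters, and limma 3.58.1 on log2 FPKM. Single genes were tested by exact permutation of log2(CPM + 0.5) in Python 3.11.15. The genes and lists were chosen with earlier results of these data known. Named are the 9 genes, their fast counterparts (*Myh1* standing in for *Myh4*), the other slow-fibre genes, and the 10 genes most alike, and other genes were named after their values were seen. A gene of the fibre type regulators is not reported here and was left out of that list. P-values set the difference between the groups against the spread between these rats.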

Additional observations from a re-analysis of the deposited data

How the results depend on the processing

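The 9 genes were tested under 18 other settings, and in 0 of them did any of the 9 reach an adjusted p under 0.05. The number of all genes called, 1 by edgeR's quasi-likelihood test (1326 at an unadjusted p under 0.05), was 95 with the Wald test of DESeq2 and 0 with limma (log2 of FPKM with 1 or 0.1 added), with the replicate block, with the muscle marker covariate, without 12 h p.r. replicate 3 and NC replicate 2 together, and in the fits without 1 rat, where it ran from 0 to 0. The number of the 9 genes at an unadjusted p under 0.05, 1 with all rats, was 0 with DESeq2, 2 with no filter beyond 1 count, 7 with limma at either pseudocount, 8 with the replicate block, and 0 without 12 h p.r. replicate 3 and NC replicate 2 together. Over all genes tested, that class held 1361 of 20945 with DESeq2, 1448 of 21046 with no filter beyond 1 count, and 974 of 13937 with the replicate block. With limma it held 1430 (1 added) and 1437 (0.1 added) of 17691 genes. Without 1 rat, the number of the 9 ran from 0 to 8, with 8 when 12 h p.r. replicate 2 was left out and 0 when 12 h p.r. replicate 4, NC replicate 2, or NC replicate 4 was. Over all genes it ran from 879 to 1580 in those fits. limma weights each rat alike on the log scale, which moved the median log2 fold change from −1.84 to −3.19 and −3.48. The labels do not state whether equal replicate numbers pair the rats. Rats of the same number had correlations of −0.20 to 0.13 after removal of the group means, which cannot decide this. The replicate block moved the median log2 fold change to −3.11. The direction of *Myh7b* changed to −0.0053 with DESeq2, −0.0062 with RLE factors, −0.0056 with no filter beyond 1 count, −0.0007 with limma on log2(FPKM + 1), −0.019 with the muscle marker covariate, −0.00028 in mean log2(FPKM + 0.5), and −0.10 to 0.15 without 1 rat, all smaller than its standard error of 0.18. Depth limits the running rat with 0 reads of *Myl2* and *Myoz2*, where 0 reads still allow a level of up to 0.388 CPM.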
